A study of Mus musculus with 16 samples.

Results

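The 43 genes described here make up a curated set of DNA replication and S phase genes, measured in mouse bone marrow myeloid progenitors after antibiotic or control drinking water. They were chosen by name, as the gene-level rows of the listed symbols, and every one of the 43 was measured among the 22180 genes of the table. Where a gene had several probe sets with only its own symbol, the row with the highest mean over the 16 arrays stood for it. Lineage-negative, Kit-positive, CD105-negative cells were sorted into 3 populations. Common myeloid progenitors (CMPs) had intermediate CD16/32 and no CD115, and granulocyte-monocyte progenitors (GMPs) had high CD16/32 and no CD115. Committed monocyte progenitors (cMoPs) carried both CD115 and Ly6C. CMPs were measured on 3 antibiotic arrays and 3 control arrays, GMPs on 3 antibiotic and 2 control arrays, and cMoPs on 3 antibiotic and 2 control arrays. Antibiotic-treated C57BL/6 mice drank ampicillin, metronidazole, neomycin and vancomycin, each at 1 g/L, for 3 weeks. Water of both kinds held 2% sucrose, and no group differed from another in genotype as far as the labels say. Their ages are not among the labels, nor do they say whether an array stands for a mouse or for a pool of mice. The p-values therefore measure the spread between these samples, which may be technical. From each sample 2.6 ng of RNA was amplified before hybridisation, and every value below is a log2 signal as deposited.

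A cell copies its DNA by loading the MCM2-7 helicase onto origins in G1 and switching it on in S phase. The origin recognition complex, Cdc6 and Cdt1 load the ring, and Cdc45 and the GINS complex join it to give the moving helicase. Primase and the replicative polymerases then make the new strands, held by the sliding clamp PCNA, while deoxynucleotide enzymes and histone chaperones supply the material. Many of these genes are targets of E2F transcription factors, which are released when cyclin-dependent kinases phosphorylate the retinoblastoma protein. Myeloid progenitors divide often, so these genes are commonly used to read how much of a population is replicating. In sorted bulk cells, fewer cells in S phase and less RNA per cell cannot be told apart.

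All 43 genes were well above the middle of the array signals in every sample. The lowest value of any of them was 5.52, in Fen1 (the flap endonuclease) of CMP antibiotic array 1, while the medians of the 16 arrays lay between 4.04 and 4.17. The mean over all arrays was above the highest upper quartile of the arrays, 6.41, for 42 of the 43. Their levels were also even across the study. The range of the 6 group means had a median of 0.37 over the replication genes, against 0.44 over all 22180 genes. It stayed under 0.5 in 34 of 43 (79.1%), against 60.4% of all genes. It ran from 0.16 in Pola2, the accessory subunit of DNA polymerase alpha, to 1.33 in Ccne1, which encodes cyclin E1. The SD between arrays of a group had a median of 0.14 over the replication genes and 0.21 over all genes. A range of group means grows with this spread, and no comparison with genes of equal signal was made.

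Promoters were read for the 36 members that matched the RefSeq promoter table of GRCm38.p6, which holds 250 bases before and 50 after each start. Mcm4, Gins1, Gins2, Gins4, Prim2, Pole and Rfc2 had no match. The E2F motif was searched as 4 words, TTTGGCGC, TTTCCCGC, TTTGCCGC and TTTCGCGC, on both strands, and words on opposite strands can overlap each other. At least 1 word stood in 13 of the 36 members (36.1%), against 2.6% of the 27025 genes with a promoter and 3.26% of the 16990 such genes on the array. The share was 4 of 5 for MCM2-7 genes (Mcm3, Mcm5, Mcm6 and Mcm7), 3 of 4 for licensing genes (Orc1, Cdc6 and Cdt1) and 0 of 5 for nucleotide supply genes. Other replication genes outside the set held a word in 10 of 26 promoters (38.5%), and mitotic genes in 1 of 22 (4.55%). The CHR words TTTGAA and TTTAAA, which are short and common, stood in 19 of 22 mitotic promoters (86.4%), 11 of 36 member promoters (30.6%) and 30.6% of all promoters. A match is a description of letters and shows no binding. The 160 bases before the start are given below, 5′ to 3′ on the gene's strand, for 4 loading and helicase genes with a word and for the 2 members with the largest differences between progenitors. Capitals mark E2F words on either strand, and overlapping words run together.
Mcm5, chr8:75109349-75109508, + strand: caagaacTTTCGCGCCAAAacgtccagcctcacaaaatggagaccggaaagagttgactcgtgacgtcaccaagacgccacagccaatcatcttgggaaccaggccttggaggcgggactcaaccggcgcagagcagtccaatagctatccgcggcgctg
Mcm6, chr1:128359706-128359865, - strand: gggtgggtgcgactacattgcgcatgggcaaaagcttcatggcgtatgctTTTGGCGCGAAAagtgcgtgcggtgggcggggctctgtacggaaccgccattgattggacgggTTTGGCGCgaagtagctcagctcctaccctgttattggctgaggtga
Orc1, chr4:108579294-108579453, + strand: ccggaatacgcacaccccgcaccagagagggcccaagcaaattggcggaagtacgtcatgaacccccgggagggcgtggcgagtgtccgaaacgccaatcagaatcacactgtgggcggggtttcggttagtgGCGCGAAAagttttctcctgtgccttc
Cdc6, chr11:98907991-98908150, + strand: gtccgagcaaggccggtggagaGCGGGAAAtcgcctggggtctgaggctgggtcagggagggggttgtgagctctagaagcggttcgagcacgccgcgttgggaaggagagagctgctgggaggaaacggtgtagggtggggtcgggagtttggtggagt
Ccne1, chr7:38107491-38107650, - strand: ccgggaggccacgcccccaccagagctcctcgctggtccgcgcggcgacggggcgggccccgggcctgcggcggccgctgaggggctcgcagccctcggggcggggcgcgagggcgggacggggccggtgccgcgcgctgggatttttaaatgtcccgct
Cdc45, chr16:18811973-18812132, - strand: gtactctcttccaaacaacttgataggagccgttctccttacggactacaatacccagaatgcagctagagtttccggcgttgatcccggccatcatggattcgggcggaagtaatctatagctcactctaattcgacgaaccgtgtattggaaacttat
In Mcm5 the words began 153 and 149 bases before the start and overlapped, and in Mcm6 they began 110, 106 and 47 bases before it. In Orc1 the word began 27 bases before the start, and in Cdc6 138 bases before it. None of the 4 words stood in the 300-base windows of Ccne1, Cdc45, Tk1, Rrm1 or Chaf1b. Other spellings of the motif were not searched, so this does not show that an E2F site is missing.

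The progenitor comparison asks which replication genes differ between the 3 sorted stages. Differences were averaged over both waters and called at a limma adjusted p under 0.05 over all 22180 genes (Benjamini-Hochberg adjustment of a two-sided test). The error beside a difference is its standard error. The sorted stages carried the markers of their labels. All 7 GMP and early neutrophil markers were called higher in GMPs than in CMPs. All 7 cMoP and monocyte markers, such as the CD115 gene Csf1r, were called higher in cMoPs than in CMPs. Fcgr3, Fcgr2b, Csf1r and Ly6c2 encode proteins used for the sort, so their calls follow from it in part. Between cMoPs and GMPs the median difference was -0.27 over the 7 GMP markers and 1.55 over the 7 cMoP markers. All 5 CMP gate and early progenitor markers read lower than in CMPs, by a median of -0.48 in GMPs and -1.42 in cMoPs. CMPs also carried erythroid and megakaryocyte transcripts: all 5 erythroid markers analysed and all 4 megakaryocyte markers were called lower in GMPs and in cMoPs than in CMPs. The mean of the 5 erythroid markers ran from 4.96 to 5.61 on GMP arrays and from 4.76 to 5.15 on cMoP arrays, against 8.75 to 9.13 on CMP arrays. The median difference of the 7 mature neutrophil markers from CMPs was -0.54 in GMPs and -0.85 in cMoPs. Negative differences numbered 6 and 7 of these 7, or 6 and 6 after quantile normalization. GMPs carried eosinophil, basophil and mast cell transcripts. Of 6 such markers, 4 were called higher in GMPs than in CMPs and 5 lower in cMoPs than in GMPs. Their mean ran from 4.86 to 5.12 on cMoP arrays, against 8.04 to 8.45 on GMP arrays and 6.17 to 6.76 on CMP arrays. Prg2, an eosinophil granule gene, was called higher in GMPs than in CMPs (4.02 ± 0.34) and lower in cMoPs than in GMPs (-5.01 ± 0.36). The part of these other lineages in the differences between stages below was not tested. Some further markers were not analysed here.

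Between GMPs and CMPs, 5 replication genes were called, Cdc45 higher and Ccne1, Chaf1b, Cdc6 and Rrm1 lower in GMPs. That is 11.6% of the set, against 16% of all genes. By direction, 1 member was higher, against 7.87% of all genes, and 4 were lower (9.3%), against 8.17%. The median difference of the 43 was -0.09, with 30 negative and 13 positive. Over all genes the median was 0.03, with 10077 negative and 12100 positive. At an unadjusted p under 0.05, 2 were higher (13.3% of all genes) and 8 lower (13.2% of all genes). Every GMP array lay below every CMP array for 5 members (Cdc6, Pcna, Rrm1, Chaf1b and Ccne1; 11.6%), against 5.75% of all genes. Every GMP array lay above every CMP array for 1 member, Cdc45, against 5.49% of all genes.

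Ccne1 encodes cyclin E1, which drives entry into S phase with Cdk2, and it showed the widest range among the 43 genes. It read 6.57, 6.51 and 6.83 in antibiotic GMPs and 6.70 and 6.90 in control GMPs, against 7.96, 7.91 and 7.95 in antibiotic CMPs and 8.06, 7.94 and 7.90 in control CMPs. The groups did not overlap, and Ccne1 fell 2.35-fold in GMPs (difference -1.24 ± 0.11, adjusted p = 8.7e-07). In cMoPs it read 7.24, 6.98 and 7.46 after antibiotics and 7.38 and 6.90 with control water, between the levels of the other stages. It was lower in cMoPs than in CMPs (-0.77 ± 0.11, adjusted p = 0.000112) and higher in cMoPs than in GMPs (0.47 ± 0.12, adjusted p = 0.0328). The GMP and cMoP arrays overlapped at 6.90, the reading of GMP control 2 and of cMoP control 2. The cMoP over GMP call was lost without GMP antibiotic 1 or 2, GMP control 1 or 2, cMoP antibiotic 1 or 3, or cMoP control 1 (adjusted p = 0.0554 to 0.191), and in a fit of only the GMP and cMoP arrays (adjusted p = 0.0901).

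Chaf1b encodes a subunit of chromatin assembly factor 1, which places histones on new DNA, and it fell 1.44-fold in GMPs. It read 6.98, 6.99 and 7.15 in antibiotic GMPs and 7.27 and 7.42 in control GMPs, against 7.48, 7.70 and 7.64 in antibiotic CMPs and 7.63, 8.0 and 7.89 in control CMPs (-0.53 ± 0.10, adjusted p = 0.00105). In cMoPs it read 7.05, 7.07 and 7.32 after antibiotics and 7.19 and 7.34 with control water, again below every CMP array (-0.52 ± 0.10 against CMPs, adjusted p = 0.00108). The GMP and cMoP arrays overlapped (0.01 ± 0.10, adjusted p = 0.976). Its partner subunit Chaf1a differed by -0.05 ± 0.12 in GMPs and by 0.01 ± 0.12 in cMoPs relative to CMPs, and was not called. The histone mRNA binding protein Slbp and the replication-linked methylation cofactor Uhrf1 were not called in any progenitor comparison, with differences between -0.20 and 0.27. Every cMoP array of Slbp lay above every GMP array (0.27 ± 0.11, adjusted p = 0.239).

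Cdc45, the activator that turns the loaded ring into a moving helicase, was the only member called higher in GMPs than in CMPs. It read 8.83, 9.03 and 8.90 in antibiotic GMPs and 8.76 and 8.75 in control GMPs, against 8.20, 7.80 and 8.55 in antibiotic CMPs and 8.32, 8.22 and 8.22 in control CMPs. The groups did not overlap (0.62 ± 0.11, 1.54-fold, adjusted p = 0.000957). In cMoPs it read 9.06, 9.03 and 8.96 after antibiotics and 8.90 and 8.95 with control water, 1.68-fold higher than in CMPs (0.75 ± 0.11, adjusted p = 0.000131). The GMP and cMoP arrays of Cdc45 overlapped, and their difference of 0.13 was not called. The SD between antibiotic CMP arrays was 0.38, the widest of the 6 groups for this gene. No other firing factor was called. Gins1, Gins2, Gins4, Mcm10, Cdc7 and Dbf4 differed by -0.10 to -0.01 between GMPs and CMPs, and Gins3 by 0.34 ± 0.14, none called. Relative to CMPs the same factors differed in cMoPs by -0.07 (Cdc7, the kinase that starts firing) to 0.36 ± 0.14 (Gins3), again none called. Gins3 nonetheless had every cMoP array above every CMP array, at 7.83, 7.41 and 7.65 in antibiotic cMoPs and 7.63 and 7.59 in control cMoPs, against 7.10, 7.29 and 7.27 in antibiotic CMPs and 7.22, 7.33 and 7.34 in control CMPs.

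Of the 4 licensing factors 2 were called, in different comparisons and directions. Cdc6, the ATPase that helps to load the ring, fell 1.36-fold in GMPs. It read 8.35, 8.44 and 7.86 in antibiotic GMPs and 8.68 and 8.36 in control GMPs, against 9.01, 8.79 and 8.72 in antibiotic CMPs and 8.88, 8.73 and 8.71 in control CMPs (-0.44 ± 0.12, adjusted p = 0.0212). The arrays did not overlap, but the call was lost without CMP antibiotic 1 (adjusted p = 0.0547) or GMP control 2 (adjusted p = 0.118). In cMoPs Cdc6 read 8.38, 8.64 and 8.23 after antibiotics and 8.62 and 8.53 with control water, below every CMP array and not called (-0.31 ± 0.12, adjusted p = 0.0952). Cdt1, its partner in loading, rose 1.27-fold in cMoPs relative to CMPs (0.34 ± 0.09, adjusted p = 0.0158). Cdt1 read 8.92, 8.68 and 8.93 in antibiotic cMoPs and 9.18 and 9.08 in control cMoPs, against 8.64, 8.64 and 8.43 in antibiotic CMPs and 8.85, 8.75 and 8.55 in control CMPs. These arrays overlapped, and the call was lost without cMoP control 1 (adjusted p = 0.0702). The origin recognition subunits Orc1 and Orc6 were not called, with differences between -0.28 and 0.20 over the 3 comparisons.

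Of the 5 nucleotide supply genes 2 were called. Rrm1, the large subunit of ribonucleotide reductase, fell 1.24-fold in GMPs, with 9.65, 9.69 and 9.84 in antibiotic GMPs and 9.83 and 9.79 in control GMPs. Its CMP readings were all higher, at 10.15, 9.90 and 10.18 after antibiotics and 10.10, 10.02 and 10.12 with control water (GMP minus CMP -0.31 ± 0.08, adjusted p = 0.018). This call was lost without GMP control 1 (adjusted p = 0.05) or GMP control 2 (adjusted p = 0.0643). Tk1 encodes cytosolic thymidine kinase, a salvage enzyme that peaks in S phase, and it was highest in cMoPs. It read 9.05, 9.16 and 9.03 in antibiotic cMoPs and 8.79 and 8.92 in control cMoPs, against 8.10, 8.44 and 8.46 in antibiotic CMPs and 8.67, 8.46 and 8.31 in control CMPs. Every cMoP array was above every CMP array, a 1.48-fold rise (0.56 ± 0.10, adjusted p = 0.000555). In GMPs Tk1 read 8.40, 8.60 and 8.54 after antibiotics and 8.62 and 8.65 with control water, below every cMoP array (cMoP minus GMP 0.39 ± 0.10, adjusted p = 0.0368). The cMoP over GMP call of Tk1 was lost without GMP antibiotic 1 or 3, either GMP control array, or any of the 5 cMoP arrays (adjusted p = 0.0568 to 0.129). It also missed the threshold after quantile normalization (adjusted p = 0.0712). Tyms, which makes thymidylate, and Rrm2, the small reductase subunit, were not called in any of the 3 comparisons. For Rrm2 this depends on the probe set. The dimmer one, 17274540, ran from 9.49 to 9.86 on cMoP arrays, against 8.83 to 9.32 on CMP arrays, with no overlap, and was not tested on its own. Dut, which removes dUTP, was not called either, although every cMoP array lay below every CMP array (-0.24 ± 0.10, adjusted p = 0.103).

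**Figure D1:**
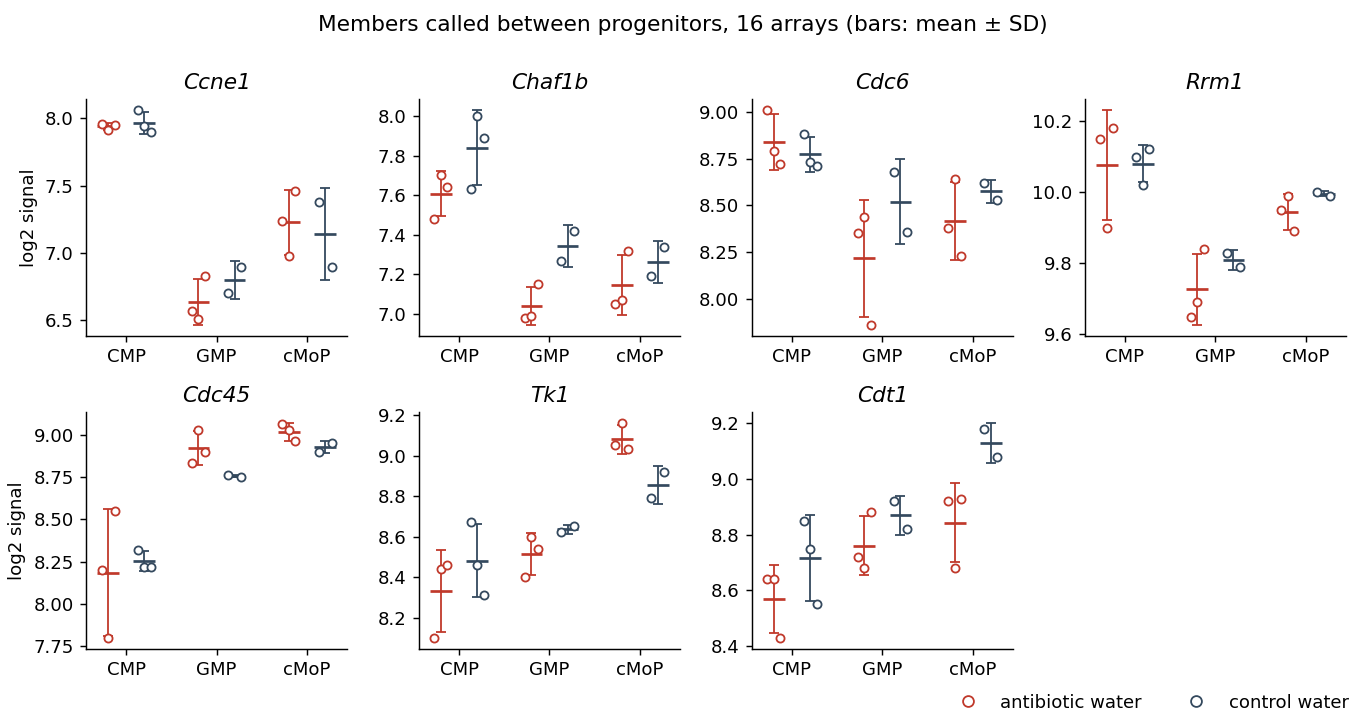
Log2 signal of the 7 replication genes called in at least 1 progenitor comparison, on each of the 16 arrays, by progenitor (x axis) and water (colour; bars show mean ± SD of 2 or 3 arrays). Ccne1 sits at 7.90 to 8.06 in CMPs and at 6.51 to 6.90 in GMPs. Tk1 is highest in cMoPs, and Cdc45 is lower in CMPs than in GMPs and cMoPs, which overlap. Each panel has its own y axis, which does not start at 0.

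The helicase core itself showed no called difference between stages. Mcm2 to Mcm7 differed by -0.16 to 0.16 between GMPs and CMPs, by -0.09 to 0.15 between cMoPs and GMPs, and by -0.18 to 0.22 between cMoPs and CMPs. At an unadjusted p under 0.05, limma picked in turn 0, 0 and 1 of the 6, against 5875, 3514 and 6524 of 22180 genes. The 1 gene was Mcm5 (0.22 ± 0.08, adjusted p = 0.088), which was not called. Nor were the polymerase and primase genes Pola1, Pola2, Prim1, Prim2, Pold1 and Pole called. Pole, the catalytic subunit of the leading-strand polymerase, came nearest, at -0.25 ± 0.09 in GMPs relative to CMPs (adjusted p = 0.0801). Of the clamp and strand-processing genes, Pcna lay below every CMP array in GMPs, at 10.92, 10.90 and 10.97 in antibiotic GMPs and 10.97 and 10.98 in control GMPs, against 11.02, 11.06 and 11.03 in antibiotic CMPs and 11.12, 11.26 and 11.22 in control CMPs. Its difference of -0.17 ± 0.08 was not called (adjusted p = 0.171). Fen1 differed by 0.44 ± 0.16 in cMoPs relative to CMPs (adjusted p = 0.0636), the nearest to a call in its group. Its dimmer probe set, 17362609, did not show this, averaging 6.21 in antibiotic cMoPs and 5.99 in control cMoPs, against 5.93 in antibiotic CMPs and 6.25 in control CMPs. The clamp loader subunits Rfc2, Rfc3 and Rfc5, the ligase Lig1 and the single-strand binding subunits Rpa1 and Rpa2 differed by -0.22 to 0.40 and were not called. E2f1, the transcription factor, differed by 0.24 ± 0.12 in GMPs and 0.27 ± 0.12 in cMoPs relative to CMPs, neither called.

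Between cMoPs and GMPs only Ccne1 and Tk1 were called, both higher, which is 4.65% of the set, against 5.42% of all genes (2.6% higher and 2.82% lower). The next smallest p was that of Gins1, a subunit of GINS, with 8.32, 8.43 and 8.43 in antibiotic cMoPs and 8.46 and 8.47 in control cMoPs, against 8.22, 8.05 and 8.01 in antibiotic GMPs and 8.21 and 8.14 in control GMPs. These arrays did not overlap (0.30 ± 0.10, adjusted p = 0.106). At an unadjusted p under 0.05, 11 members were higher (25.6%), against 8.49% of all genes, and none lower, against 7.35%. Of the set, 39 differences were positive and 4 negative (11742 and 10427 of all 22180 genes). The median was 0.13, against 0.01 over all genes. After quantile normalization 10 of the set were negative and its median was 0.08. The median was 0.18 on antibiotic arrays alone and 0.035 on control arrays alone. Every cMoP array was above every GMP array for 5 members (Orc6, Gins1, Rrm1, Tk1 and Slbp; 11.6%), against 3.33% of all genes, and below for none (3.17% of all genes). Between cMoPs and CMPs 5 members were called (11.6%), against 18.9% of all genes. Cdc45, Tk1 and Cdt1 were higher, against 9.72% of all genes, and Ccne1 and Chaf1b lower, against 9.2%. At an unadjusted p under 0.05, 9 were higher (20.9%, against 16%) and 5 lower (11.6%, against 13.5%). The median was 0.04, as over all genes, and 0.01 after quantile normalization. It was 0.13 on antibiotic arrays alone and -0.012 on control arrays alone. Every cMoP array was above every CMP array for 3 members (6.87% of all genes) and below for 4 (6.33%).

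With control arrays alone, a check chosen after seeing the data, 1 of the 5 GMP and CMP calls (Ccne1), 0 of the 2 cMoP and GMP calls and 2 of the 5 cMoP and CMP calls (Ccne1 and Cdc45) passed. All the called differences had the same sign within each water, for example -1.30 with antibiotic water and -1.17 with control water for Ccne1 in GMPs relative to CMPs.

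Of 31 other replication genes analysed, 3 were higher and 3 lower in GMPs than in CMPs, that is 6 of 31, against 16% of all genes. The origin recognition subunits did not all go the same way. Orc5 differed by -0.71 ± 0.13 and Orc2 by -0.58 ± 0.09, both lower, while Orc3 was higher by 0.36 ± 0.10 (adjusted p = 0.000644, 0.000182 and 0.0268). Pold4, a small subunit of DNA polymerase delta, rose by 0.51 ± 0.16, Ticrr, an activator of firing, by 0.30 ± 0.10, and Pole3, a histone-fold subunit of polymerase epsilon, fell by 0.35 ± 0.09 (adjusted p = 0.0125 to 0.0411). In cMoPs relative to CMPs, 3 rose (Pold4 by 0.84 ± 0.16, Clspn by 0.34 ± 0.10 and Mcmbp by 0.30 ± 0.09) and 4 fell (Orc5, Orc2, Pole3 and Orc4, by 0.36 to 0.88), that is 7 of 31, against 18.9% of all genes. Between cMoPs and GMPs limma called 0 of the 31, against 5.42% of all genes. It picked 4 of the 31 at an unadjusted p under 0.05, against 3514 of 22180 genes. Of 12 other nucleotide and S phase chromatin genes, Cad, which starts pyrimidine synthesis, and Dck, a deoxynucleoside kinase, fell in GMPs relative to CMPs (-0.48 ± 0.09 and -0.46 ± 0.12). Dck was higher in cMoPs than in GMPs (0.53 ± 0.13, adjusted p = 0.0208). In cMoPs relative to CMPs Hells, a chromatin remodeller, rose by 0.46 ± 0.09, and Dctd and the histone chaperone Asf1a fell by 0.47 and 0.39. Of these 12 genes 2 were called between GMPs and CMPs (16% of all genes), 1 between cMoPs and GMPs (5.42%) and 3 between cMoPs and CMPs (18.9%). Rfc4, Rnaseh2c and Chtf18 were not analysed here.

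Of 23 other regulators of the G1 to S step analysed, 5 fell in GMPs relative to CMPs (8.17% of all genes) and none rose (7.87%). The largest falls were those of Mycn (-0.95 ± 0.12), E2f5 (-0.88 ± 0.16), the cyclin D1 gene Ccnd1 (-0.82 ± 0.10) and E2f6 (-0.50 ± 0.13), and the fifth was E2f4. In cMoPs relative to GMPs, Ccnd1 rose by 1.31 ± 0.11 and E2f2 by 0.73 ± 0.20, while Ccnd2, Myc and Cdk6 fell by 0.56, 0.40 and 0.34. In cMoPs relative to CMPs, 3 rose (Skp2 by 0.64 ± 0.12, E2f7 by 0.55 ± 0.13 and Ccnd1 by 0.48 ± 0.10) and 7 fell, led by Mycn (-1.16 ± 0.12), Ccnd2 (-0.82 ± 0.10), Myc (-0.61 ± 0.09) and E2f5 (-0.49 ± 0.16). The calls among the 23 thus numbered 5 between cMoPs and GMPs (5.42% of all genes) and 10 between cMoPs and CMPs (18.9%). Of 7 cyclin-dependent kinase inhibitors, Cdkn1b (p27) fell in GMPs relative to CMPs (-0.46 ± 0.13). Cdkn2c (p18) was higher in cMoPs than in GMPs (1.05 ± 0.13) and than in CMPs (0.70 ± 0.13), and Cdkn2d (p19) was higher in cMoPs than in GMPs (0.53 ± 0.14). The calls among the 7 numbered 1 between GMPs and CMPs (16% of all genes), 2 between cMoPs and GMPs (5.42%) and 1 between cMoPs and CMPs (18.9%). Ccne2 was not analysed here.

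Of 25 mitotic genes analysed, 20 were called higher in cMoPs than in CMPs (9.72% of all genes) and none lower (9.2%), with a median difference of 0.42, while the 43 replication genes had a median of 0.04 and 3 called higher. The largest were the cytokinesis genes Kif23 (1.04 ± 0.10) and Racgap1 (0.92 ± 0.09) and the mitotic kinases Aurkb (0.90 ± 0.09) and Aurka (0.74 ± 0.13). Relative to GMPs, 7 were called higher in cMoPs (Racgap1, Birc5, Kif23 and Aurkb among them, by 0.47 to 0.78, against 2.6% of all genes), with 25 of 25 positive and a median of 0.30. Relative to CMPs, 3 were called higher in GMPs (Kif23, Aurkb and Nuf2, by 0.29 to 0.54, against 7.87% of all genes), with a median of 0.13. The difference between the mitotic and the replication genes was not tested. Ccnb1 was not analysed here.

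**Figure D2:**
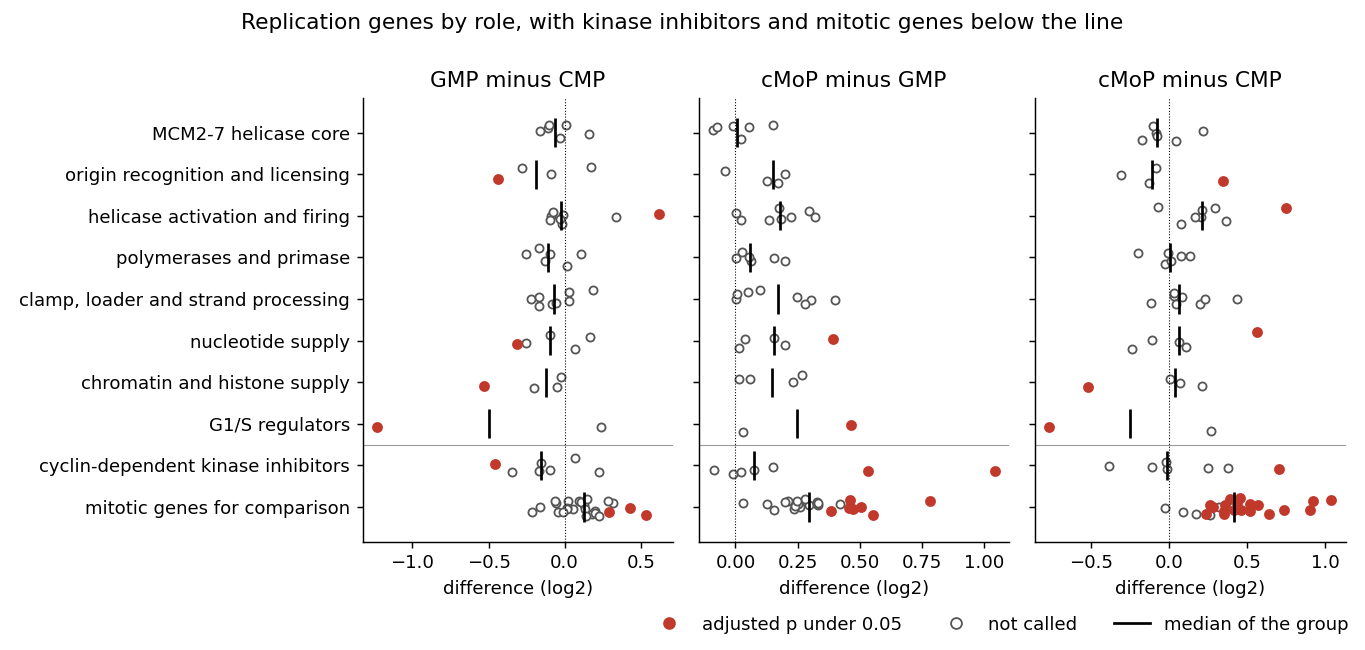
Log2 difference of each gene for GMP minus CMP, cMoP minus GMP and cMoP minus CMP (x axis), by role (rows; red points have an adjusted p under 0.05, black ticks mark the median of a row). Rows above the line are the 43 replication genes, with a median of 0.04 for cMoP minus CMP, where the mitotic row has a median of 0.42.

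The antibiotic comparison asks which genes differ with the water, and no replication gene was called in it. At the study's rate of 0.2, limma called 0 of the 43 in each progenitor and 0 in the mean over the 3 progenitors. Of all genes, 0.0406% were called in CMPs, 0.0721% in GMPs, 0.131% in cMoPs and 0.514% in the mean. At an unadjusted p under 0.05, 5 members were lower in CMPs (11.6%, against 3.86% of all genes) and none higher (3.38% of all genes). In GMPs 2 were lower (4.65%, against 4.22%) and none higher (3.27% of all genes). In cMoPs 1 was higher (2.33%, against 2.75%) and none lower (3.44% of all genes). In the mean 5 were lower (11.6%, against 5.23%) and none higher (4.3% of all genes). The median difference was -0.11 in CMPs and -0.12 in GMPs, against -0.01 over all genes in both. In cMoPs it was 0.02, and -0.01 after quantile normalization. Negative differences numbered 32 of 43 in CMPs, 35 in GMPs and 18 in cMoPs, against 11450, 11588 and 11567 of 22180 genes. They were negative in all 3 progenitors for 10 members (23.3%, against 16.5% of all genes) and positive in all 3 for 3 (6.98%, against 13.7%). The mean of the 43 genes on an array was 8.42 to 8.47 in antibiotic CMPs, against 8.54 to 8.56 in control CMPs. In GMPs it was 8.33 to 8.40 after antibiotics, against 8.48 to 8.49 with control water. In cMoPs it was 8.52 to 8.58 after antibiotics, against 8.54 to 8.55 with control water. The ranges were apart in CMPs and GMPs and overlapped in cMoPs.

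Markers of other cells moved beside these differences. The mean of the 7 cMoP and monocyte markers was 7.05 to 7.55 on antibiotic CMP arrays, against 7.72 to 7.83 on control CMP arrays. In GMPs it was 8.08 to 8.43 after antibiotics, against 8.43 to 8.70 with control water. Of the 7 markers 6 were lower after antibiotics in CMPs, where F13a1 was called (-1.15 ± 0.17, adjusted p = 0.0301), and 6 in GMPs, where none was called. In cMoPs the list mean was 9.96 to 10.1 after antibiotics, against 9.94 to 9.99 with control water. Of the 7 GMP and early neutrophil markers, 6 were lower in antibiotic CMPs (median -0.19), 3 in antibiotic GMPs and 1 in antibiotic cMoPs. Their list mean overlapped between waters in CMPs, at 8.27 to 8.96 after antibiotics and 8.66 to 9.10 with control water. The erythroid list mean was 5.57 to 5.61 in antibiotic GMPs, against 4.96 to 5.04 in control GMPs, where the red cell carbonic anhydrase gene Car1 was called higher (1.78 ± 0.20, adjusted p = 0.00308). The mean of the 4 megakaryocyte markers was 5.89 to 6.00 in antibiotic GMPs, against 5.23 to 5.66 in control GMPs, with 4 of 4 higher and none called. Averaged over the progenitors, F13a1, Ccr2 and Cx3cr1 were called lower, and the progenitor gene Hoxa9 lower. Car1 was called higher in that mean, in an erythroid list with 3 differences positive and 2 negative. The mast cell gene Cpa3 was called higher too, in an eosinophil, basophil and mast cell list with 3 positive and 3 negative. No marker of these lists read 0 on any array, but a log2 signal above 0 does not show that a transcript was present. Fcer1a averaged 2.17 over the arrays, below their lower quartiles of 2.89 to 2.99. The part of these shifts in the replication gene values was not tested.

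All 6 helicase core genes read lower in antibiotic CMPs, each with every antibiotic array below every control array, though no gene passed the test. Quantile normalization left 3 of the 6 apart. Of all genes, 6.36% lay below in this way, and 5.99% after quantile normalization. Mcm2 read 8.69, 8.82 and 8.83 in antibiotic CMPs, against 9.08, 8.95 and 9.16 in control CMPs. Its difference there was -0.28 ± 0.12, the widest of the 6 (adjusted p = 0.672). Mcm3 read 9.60, 9.46 and 9.56 in antibiotic CMPs, against 9.70, 9.74 and 9.61 in control CMPs (-0.14 ± 0.11). Mcm4 read 9.24, 9.32 and 9.33 in antibiotic CMPs, against 9.53, 9.46 and 9.58 in control CMPs (-0.23 ± 0.10). Mcm5 read 8.51, 8.55 and 8.72 in antibiotic CMPs, against 8.91, 8.87 and 8.73 in control CMPs (-0.24 ± 0.11). In Mcm3 and Mcm5 the nearest arrays of the groups almost met, while in Mcm4 they lay further apart. Mcm6 read 10.33, 10.31 and 10.24 in antibiotic CMPs, against 10.45, 10.45 and 10.48 in control CMPs (-0.17 ± 0.10). Mcm7 read 8.97, 8.96 and 8.99 in antibiotic CMPs, against 9.03, 9.04 and 9.22 in control CMPs (-0.12 ± 0.12). Adjusted p-values for the 6 genes ran from 0.672 to 0.863 in CMPs.

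In GMPs no helicase core gene was called, 5 of the 6 had every antibiotic array below both control arrays, and 3 did so after quantile normalization. Of all genes, 12.6% did so, and 12% after quantile normalization. Mcm2 read 8.89, 8.68 and 8.86 in antibiotic GMPs, against 9.14 and 8.95 in control GMPs (-0.24 ± 0.14). Mcm3 read 9.33, 9.45 and 9.46 in antibiotic GMPs, against 9.65 and 9.54 in control GMPs (-0.18 ± 0.12). Both were again lower on every antibiotic array. Mcm4 read 9.30, 9.26 and 9.35 in antibiotic GMPs, against 9.46 and 9.46 in control GMPs (-0.16 ± 0.12). Mcm5 read 8.72, 8.85 and 8.74 in antibiotic GMPs, against 8.99 and 8.98 in control GMPs (-0.22 ± 0.12). The control arrays of both genes lay close together, above all 3 antibiotic arrays. Mcm6 read 10.27, 10.18 and 10.26 in antibiotic GMPs, against 10.28 and 10.35 in control GMPs (-0.08 ± 0.11). Mcm7 read 8.77, 8.78 and 9.02 in antibiotic GMPs, against 8.87 and 8.90 in control GMPs (-0.03 ± 0.13), and its groups overlapped. Adjusted p-values for the 6 genes ran from 0.747 to 0.981 in GMPs.

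In cMoPs all 6 helicase core genes had overlapping groups, and 5 of the 6 after quantile normalization. Of all genes, 11.4% lay below and 9.59% above in cMoPs, as deposited. Mcm2 read 8.92, 8.59 and 8.81 in antibiotic cMoPs, against 8.97 and 8.83 in control cMoPs. Mcm3 read 9.82, 9.60 and 9.62 in antibiotic cMoPs, against 9.63 and 9.63 in control cMoPs, and its array cMoP antibiotic 1 was the highest of all 16. Mcm4 read 9.21, 9.19 and 9.36 in antibiotic cMoPs, against 9.42 and 9.31 in control cMoPs. Differences were negative for 3 of the 6 (4 of 6 after quantile normalization), from -0.13 ± 0.14 in Mcm2 to 0.09 ± 0.13 in Mcm7. Mcm5 read 8.86, 8.99 and 8.95 in antibiotic cMoPs, against 8.85 and 9.01 in control cMoPs. Mcm6 read 10.32, 10.28 and 10.24 in antibiotic cMoPs, against 10.31 and 10.33 in control cMoPs. Mcm7 read 8.92, 8.80 and 8.99 in antibiotic cMoPs, against 8.72 and 8.91 in control cMoPs. The mean of the 6 genes separated the waters in CMPs and GMPs and not in cMoPs. It was 9.22, 9.24 and 9.28 in antibiotic CMPs, against 9.45, 9.42 and 9.46 in control CMPs. In GMPs it was 9.21, 9.20 and 9.28 after antibiotics, against 9.40 and 9.36 with control water. In cMoPs it was 9.34, 9.24 and 9.33 after antibiotics, against 9.32 and 9.34 with control water. The antibiotic effect on the 6 genes was not shown to differ between progenitors (interaction F test of limma, adjusted p = 0.936 to 0.983). Averaged over the progenitors, the difference was -0.22 ± 0.08 for Mcm2 (adjusted p = 0.378), -0.17 ± 0.07 for Mcm4 (adjusted p = 0.442) and -0.15 ± 0.07 for Mcm5 (adjusted p = 0.512).

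**Figure D3:**
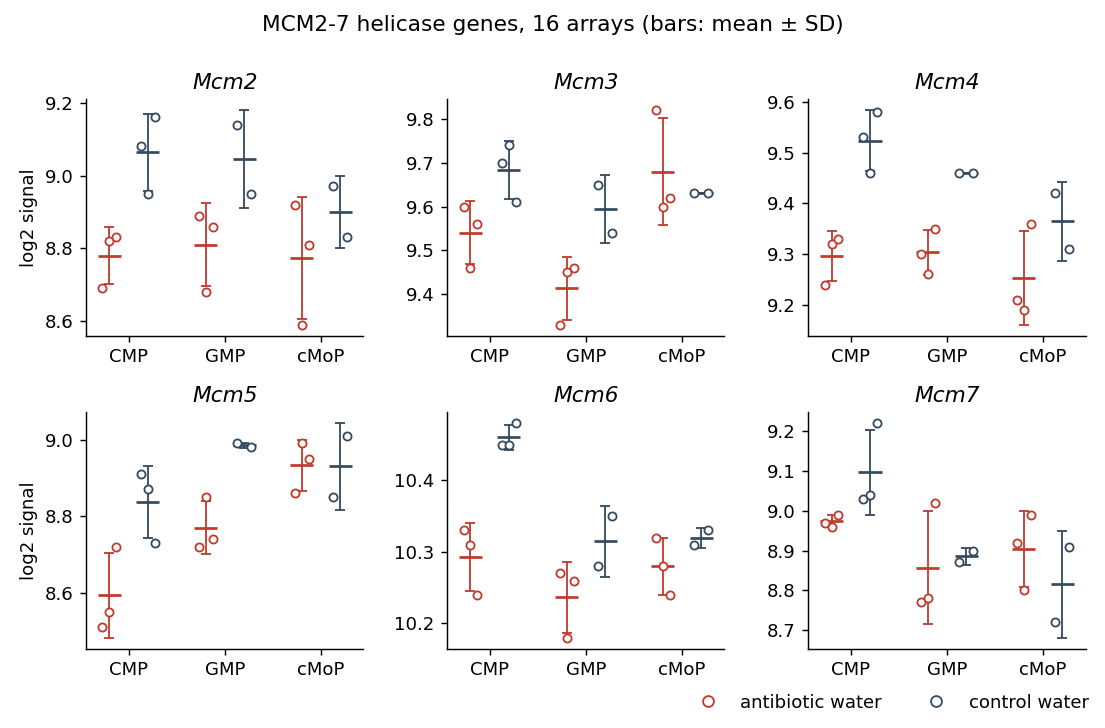
Log2 signal of Mcm2 to Mcm7 on each of the 16 arrays, by progenitor (x axis) and water (colour; bars show mean ± SD of 2 or 3 arrays). In CMPs all antibiotic arrays lie below all control arrays for the 6 genes (6.36% of all genes), none of which passed the test. After quantile normalization 3 of the 6 do so (5.99% of all genes). Each panel has its own y axis, which does not start at 0.

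Counting over the whole set, every antibiotic CMP array lay below every control CMP array for 12 members (27.9%), against 6.36% of all genes. They were the 6 MCM genes with Orc1, Gins2, Pcna, Rfc2, Lig1 and Dut, and none lay above (5.21% of all genes). In GMPs every antibiotic array lay below for 12 members (27.9%), against 12.6% of all genes. These were Mcm2 to Mcm6, Orc1, Mcm10, Pola1, Prim2, Rpa2, Tk1 and Chaf1b, and 1 member, Cdc45, lay above (10.4% of all genes). In cMoPs 7 members lay above (Orc1, Cdc45, Cdc7, Dbf4, Prim1, Tyms and Tk1; 16.3%, against 9.59%) and 4 below (Cdt1, Gins1, Gins4 and Prim2; 9.3%, against 11.4%). Quantile normalization left 8 members below in CMPs (5.99% of all genes) and 9 in GMPs (12% of all genes). In cMoPs it gave 8 above (10.8% of all genes) and 6 below (11.3% of all genes).

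Outside the helicase core the smallest p in CMPs was that of Gins2, another GINS subunit. It read 8.96, 9.18 and 8.68 in antibiotic CMPs, against 9.48, 9.35 and 9.27 in control CMPs (-0.43 ± 0.15, adjusted p = 0.563). Uhrf1 read 9.30, 9.10 and 9.07 in antibiotic CMPs, against 9.55, 9.53 and 9.30 in control CMPs (-0.30 ± 0.13, adjusted p = 0.671). The Uhrf1 groups touched at 9.30 and did not separate. Orc1, the subunit of the origin recognition complex that varies with the cell cycle, had the smallest p in both GMPs and cMoPs, in opposite directions. In GMPs Orc1 read 6.01, 6.36 and 6.40 after antibiotics, against 6.51 and 6.85 with control water (-0.42 ± 0.17, adjusted p = 0.597). In cMoPs it read 6.38, 6.57 and 6.88 after antibiotics, against 6.28 and 6.21 with control water (0.37 ± 0.17, adjusted p = 0.798). Its arrays separated in all 3 progenitors, since in CMPs they read 6.39, 6.43 and 6.56 after antibiotics, against 6.70, 6.60 and 6.67 with control water. The interaction F test gave Orc1 an adjusted p of 0.772, and limma called 0 members in it, against 0.00451% of all genes. At an unadjusted p under 0.05 it picked 1 member, Orc1 (2.33%), against 5.79% of all genes.

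Gins3 in GMPs read 7.79, 7.05 and 7.20 after antibiotics, against 8.17 and 7.52 with control water (-0.50 ± 0.22, adjusted p = 0.628). Mcm10, which helps to start the helicase, read 7.09, 7.43 and 7.41 in antibiotic GMPs, against 7.60 and 7.59 in control GMPs (-0.29 ± 0.13, adjusted p = 0.669). The Gins3 groups overlapped and the Mcm10 groups did not. In cMoPs Cdt1 read 8.92, 8.68 and 8.93 after antibiotics, against 9.18 and 9.08 with control water (-0.29 ± 0.14, adjusted p = 0.82). Prim2, the large primase subunit, read 7.10, 7.08 and 6.99 in antibiotic cMoPs, against 7.39 and 7.15 in control cMoPs (-0.21 ± 0.13, adjusted p = 0.867). Averaged over the progenitors, Chaf1b differed by -0.22 ± 0.08 (adjusted p = 0.404) and Cdt1 by -0.18 ± 0.08 (adjusted p = 0.488).

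**Figure D4:**
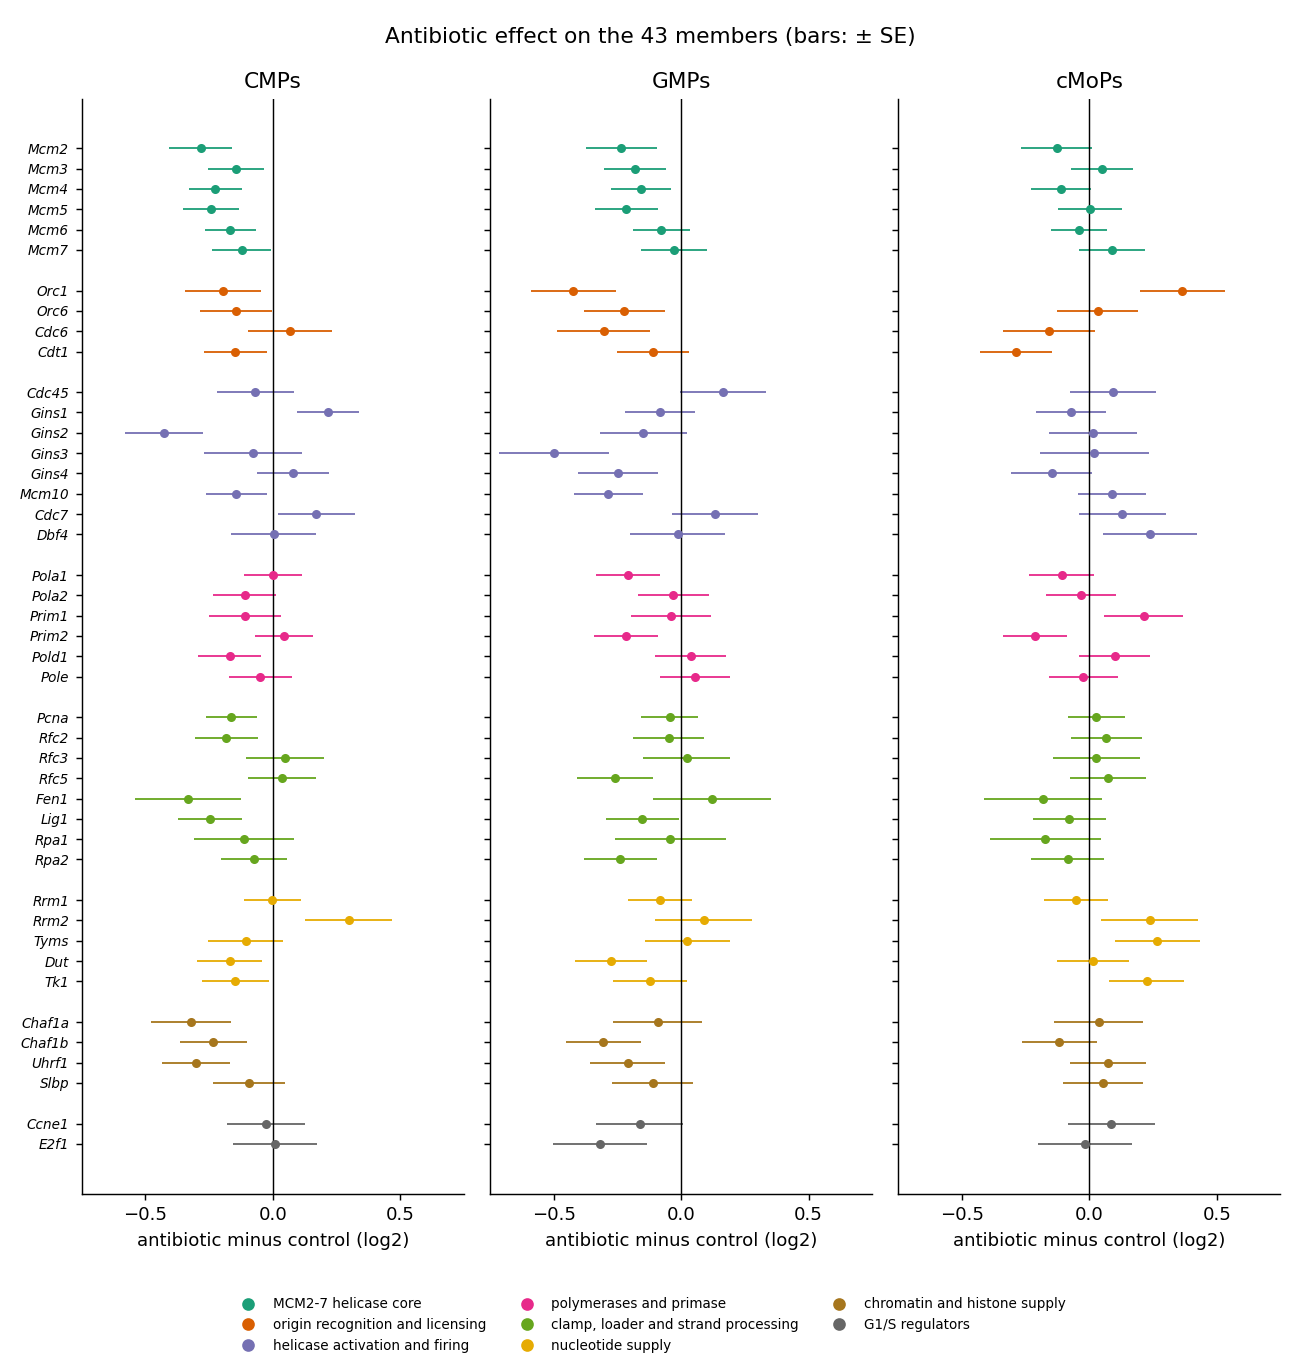
Antibiotic minus control difference in log2 (x axis) for each of the 43 replication genes (rows, coloured by role; bars show ± SE) in CMPs, GMPs and cMoPs. Negative values number 32 of 43 in CMPs, 35 in GMPs and 18 in cMoPs (30, 33 and 23 after quantile normalization), and no gene passed the adjusted test. Of all 22180 genes, 11450, 11588 and 11567 are negative as deposited.

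No gene of the remaining roles was called after antibiotics. Polymerase and primase genes ran from -0.17 (Pold1) to 0.04 (Prim2) in CMPs and from -0.22 (Prim2) to 0.06 (Pole) in GMPs. Clamp and strand-processing genes ran from -0.33 (Fen1) to 0.05 (Rfc3) in CMPs and from -0.26 (Rfc5) to 0.12 (Fen1) in GMPs. The chromatin genes Chaf1a, Chaf1b, Uhrf1 and Slbp were all negative in CMPs (-0.32 to -0.09, median -0.27, against a median of -0.20 for MCM2-7) and in GMPs (-0.31 to -0.09). Ccne1, the gene with the widest difference between stages, differed by -0.03 ± 0.15 (CMPs), -0.16 ± 0.17 (GMPs) and 0.09 ± 0.17 (cMoPs). E2f1 differed by 0.01 ± 0.17 (CMPs), -0.32 ± 0.19 (GMPs) and -0.02 ± 0.19 (cMoPs). Rrm2 was the member with the largest positive difference in CMPs (0.30 ± 0.17), and its probe sets did not give the same picture. The brighter probe set, 17547690, read 10.93, 10.29 and 10.82 in antibiotic CMPs, against 10.21, 10.35 and 10.59 in control CMPs. The other, 17274540, read 9.0, 8.98 and 9.32 in antibiotic CMPs, against 9.10, 8.83 and 9.14 in control CMPs. In GMPs the brighter probe set averaged 10.64 after antibiotics and 10.56 with control water, while the other averaged 9.36 after antibiotics and 9.63 with control water.

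None of the wider lists was called after antibiotics in any progenitor or in the mean, which covers 31 other replication genes, 12 nucleotide and chromatin genes, 23 regulators, 7 kinase inhibitors and 25 mitotic genes. In the mean, limma gave 4, 2, 2, 2 and 2 of them an unadjusted p under 0.05. Of all 22180 genes, 4.3% were higher and 5.23% lower at this limit. The smallest p was that of Cad (-0.29 ± 0.08, adjusted p = 0.265), and among kinase inhibitors Cdkn2c differed by -0.33 ± 0.11 (adjusted p = 0.318) and Cdkn1c by 0.32 ± 0.13. Of the other replication genes, Pole3 differed by -0.21 ± 0.07 and Clspn by -0.22 ± 0.08. Cdc25a differed by -0.22 ± 0.08 and the mitotic ubiquitin enzyme Ube2c by -0.27 ± 0.09. The median of the 25 mitotic genes was -0.05 in CMPs, 0.06 in GMPs and 0.02 in cMoPs.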

How the data were processed

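The authors deposited a table of log2 signals for 41345 probe sets on 16 arrays, for which the submitters' processing notes name Partek and the Transcriptome Analysis Console. How probes were summarised and normalized, and the versions, is not given in the sources used here. Genes were named from the platform annotation: 23521 probe sets had 1 symbol, 1814 several and 16010 none, and the brightest row stood for each of 22180 genes. The probe set with the higher mean thus decides a gene's value. No scaling was added. The arrays had similar quartiles (medians 4.04 to 4.17), and their number limits the precision.

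A limma model (version 3.58.1, R 4.3.3, lmFit and eBayes) was fitted to the log2 values on 6 group means with 10 residual degrees of freedom. P-values were adjusted over all 22180 genes. The false discovery rate was 0.05 between progenitors and 0.2 for antibiotics, the study's own rate. Named genes were the called ones, up to 4 per direction for wider lists, or those with the smallest p. The members and lists were chosen with earlier results of these data known. Tables and figures used Python 3.11.15, pandas 2.3.3 and matplotlib 3.10.9.

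Alternatives were quantile normalization, a trended and robust prior, a filter on dim genes, the mean of all probe sets, a fold minimum, a replicate block, only the compared arrays, and each array left out.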

Additional observations from a re-analysis of the deposited data

How the results depend on the processing

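Members called between GMPs and CMPs numbered 8 among genes above the median gene, 8 with a trended robust prior, 2 at 1.5-fold or more and 1 with control arrays alone, against 5. Between cMoPs and CMPs they numbered 8, 8, 2 and 2 in the same settings, against 5. Between cMoPs and GMPs there was 1 call after quantile normalization, 1 with the replicate number as a block (Ccne1, while Tk1 had an adjusted p of 0.0503), 1 with only the compared arrays and 1 with antibiotic arrays alone, 0 at 1.5-fold or more and 0 with control arrays alone, against 2. Leaving out each array gave 4 to 7 calls between GMPs and CMPs, 4 to 6 between cMoPs and CMPs and 0 to 2 between cMoPs and GMPs. Over all genes, the calls between GMPs and CMPs and between cMoPs and CMPs numbered 3676 and 4215 of the 11088 above the median gene, and 3867 and 4454 of 22180 with the trended prior. The calls between GMPs and CMPs, cMoPs and GMPs, and cMoPs and CMPs numbered 1949, 785 and 2297 at 1.5-fold or more and 1166, 210 and 1507 with control arrays alone, against 3558, 1202 and 4195 of 22180. Antibiotic and interaction calls stayed at 0 in all 23 alternatives, of which the stricter adjusted p under 0.05 could only return 0. Quantile normalization moved the median to 0.083 (cMoP minus GMP), 0.007 (cMoP minus CMP), -0.077 (antibiotic, CMPs) and -0.010 (antibiotic, cMoPs). Antibiotic arrays alone gave 0.18 and 0.13 for the progenitor medians of cMoPs minus GMPs and minus CMPs, and control arrays alone gave 0.035 and -0.012. With each array left out, the medians ran from 0.10 to 0.16 (cMoP minus GMP), 0.015 to 0.074 (cMoP minus CMP), -0.14 to -0.10 (antibiotic, CMPs), -0.16 to -0.11 (GMPs), -0.023 to 0.030 (cMoPs) and -0.101 to -0.059 (mean). No called member reversed its sign in any alternative. Fewer samples enter the fits on one water, and the cause was not tested for any shift of a count or a median. Same-numbered arrays of a water correlated, in deviations from their group means, by -0.05 to 0.10 (median 0.03). Differently numbered ones correlated by -0.10 to 0.06 (median -0.02). Of the 16 arrays, 10 correlated best with their own number within a water. These correlations cannot settle whether the numbers pair the samples, since deviations from the mean of 2 arrays mirror each other. The block changed no other member count by over 1.5 times.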
